A study of Homo sapiens with 30 samples.

Results

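T47D cells given siRNA against NELF-B were compared with T47D cells given siRNA against NELF-A. All 22011 transcript clusters of a gene-level exon array table were covered. The word knockdown names the siRNA label here, and loss of the targets was not shown by these values. The comparison used the 3 samples labelled siNELF-B and the 3 labelled siNELF-A, 6 of the 30 sample entries of the series, which hold 15 arrays summarised once by gene and once by exon. T47D is an established luminal, hormone receptor-positive breast cancer cell line. Cells received 10 nM of siRNA duplex, were given fresh medium after 48 hours and were harvested after 48 hours more. The siNELF-B and siNELF-A groups are set beside a control group that received siRNA against luciferase, an insect gene that human cells lack. SiNELF-C and siNELF-E arrays completed the 5 groups of 3. All groups shared the cell line, the transfection and the medium. Arrays within a group are technical repeats, per the series text, so p-values measure the spread between repeats, pooled over the 5 groups, and not between separate cultures. Each gene was targeted in 1 cell line, and the siRNA sequences were not used here.

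Negative elongation factor, NELF, binds RNA polymerase II soon after it leaves the promoter and holds it there together with the factor DSIF. The kinase P-TEFb releases the polymerase by phosphorylating the paused complex. NELF-A, NELF-B, the subunit called NELF-C or NELF-D, and NELF-E work in 1 complex, so a gene that differs between knockdowns of 2 subunits shows where the knockdowns part.

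A cluster was called when its difference passed limma with Benjamini-Hochberg adjustment at 0.05, taken over all clusters, and reached 1.5-fold. It was called separated when all 3 siNELF-B arrays lay beyond all 3 siNELF-A arrays. All levels are log2 RMA values and all differences are siNELF-B minus siNELF-A on that scale, unless control is named. IGFBP5, STAT3, EPAS1 and TXNIP were among the genes furthest above siNELF-A, and ANXA1, TNNC1, GJA1 and EFNB2 among those furthest below it. The promoters of 2 genes from each end are printed here, because the knockdowns target a factor that acts just downstream of the transcription start. They are RefSeq sequences of build GRCh38.p14, from 250 bases before to 50 bases after the start, 5′ to 3′ on the gene's own strand. IGFBP5 lies at chr2:216695500-216695799 on the minus strand and STAT3 at chr17:42388393-42388692 on the minus strand. ANXA1 lies at chr9:73151615-73151914 and GJA1 at chr6:121435396-121435695, both on the plus strand. Capitals mark matches to a TATA box (TATAAA, given strand), a GC box (GGGCGG, either strand) or an AP-1 motif (TGANTCA, either strand).
IGFBP5: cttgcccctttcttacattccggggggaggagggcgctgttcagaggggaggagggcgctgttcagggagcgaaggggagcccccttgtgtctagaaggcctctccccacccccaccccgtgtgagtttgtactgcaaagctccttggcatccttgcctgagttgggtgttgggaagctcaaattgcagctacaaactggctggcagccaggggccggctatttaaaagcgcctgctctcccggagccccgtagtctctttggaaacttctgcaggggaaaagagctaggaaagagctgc
STAT3: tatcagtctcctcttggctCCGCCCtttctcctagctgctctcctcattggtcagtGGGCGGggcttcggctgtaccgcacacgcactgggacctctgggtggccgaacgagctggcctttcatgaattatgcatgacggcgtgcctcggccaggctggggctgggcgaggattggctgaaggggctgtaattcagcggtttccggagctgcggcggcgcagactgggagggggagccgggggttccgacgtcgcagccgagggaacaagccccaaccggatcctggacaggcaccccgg
ANXA1: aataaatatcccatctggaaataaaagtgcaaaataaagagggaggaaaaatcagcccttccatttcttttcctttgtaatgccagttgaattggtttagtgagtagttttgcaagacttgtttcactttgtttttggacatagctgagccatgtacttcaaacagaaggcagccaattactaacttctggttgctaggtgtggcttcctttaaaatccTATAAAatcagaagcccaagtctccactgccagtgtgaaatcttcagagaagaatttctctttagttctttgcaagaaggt
GJA1: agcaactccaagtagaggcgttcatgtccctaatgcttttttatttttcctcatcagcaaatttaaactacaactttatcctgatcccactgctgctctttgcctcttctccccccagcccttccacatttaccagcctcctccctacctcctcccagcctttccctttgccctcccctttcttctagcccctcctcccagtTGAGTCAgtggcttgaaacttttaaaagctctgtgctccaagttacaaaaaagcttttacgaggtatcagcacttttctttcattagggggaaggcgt

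The IGFBP5 window held none of the 3 motifs, STAT3 held 2 GC boxes, ANXA1 held 1 TATA box and GJA1 held 1 AP-1 motif. Of the 15 genes furthest above siNELF-A, 14 had a promoter in the RefSeq table, and of the 15 furthest below, 13 had one. TATAAA stood in 3 of the 14 and in 1 of the 13, against 7.71% of 27305 promoters. GGGCGG stood in 6 of the 14 and in 6 of the 13, against 44.6% of all promoters. TGANTCA stood in 1 of each, against 7.76%. These matches describe letters in the windows and nothing more.

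The siNELF-B arrays differed among themselves. Their interquartile ranges were 3.57, 4.02 and 3.12 for replicates 1, 2 and 3, whereas the siNELF-A arrays had 3.91, 3.91 and 3.69. The mean correlation with the other arrays of the group was 0.9621, 0.945 and 0.9343 for siNELF-B, against 0.9838 to 0.9845 for siNELF-A. Replicates 1 and 2 of siNELF-B correlated better with the control arrays, at 0.9712 and 0.9845, and with the siNELF-A arrays, at 0.968 and 0.9734, than with their own group. Replicate 3 was at 0.9196 with control and 0.9352 with siNELF-A. The median standard deviation over clusters was 0.398 in siNELF-B, against 0.186 in siNELF-A and 0.148 in control. Bright clusters carried most of this. In the brightest 25% the median difference from siNELF-A was -0.31 for replicate 1, 0.16 for replicate 2 and -0.81 for replicate 3. The values of named genes are therefore given array by array, and the ordering of replicate 3 below 1 below 2, which 43.8% of all clusters showed, recurs in many of them. Of the 13554 clusters whose higher group mean reached the 40th percentile of levels, 59.7% showed it. Among clusters called and separated it was 59.2% of the 179 higher and 71.7% of the 746 lower. SEs and p-values rest on 1 spread for each cluster, pooled over the 5 groups. Where siNELF-B varied more than the other groups, they understate its spread.

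The targeted genes were checked first. NELFA had no gene-level cluster of its own and was taken as the median of its 15 exon-level probe sets. It read 6.44, 6.28 and 5.81 on the siNELF-B arrays, against 5.39, 5.58 and 5.92 on the siNELF-A arrays and 6.25, 6.14 and 6.34 on the control arrays. The lowest siNELF-B array overlapped the highest siNELF-A array. The difference of 0.55 (SE 0.215) did not pass the test (adjusted p = 0.175), and siNELF-A minus control was -0.61 (adjusted p = 0.176). NELFA was higher in siNELF-B by mean in 13 of its 15 probe sets, and 6 probe sets were separated upward and 1 downward. NELFB was not analysed here, so the label siNELF-B has no check at its own target.

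NELFE, which carries the RNA recognition motif of the complex, was the subunit that passed the test among those measured. Its 15 probe sets had medians of 6.79, 7.18 and 6.52 in siNELF-B, against 7.98, 8.20 and 7.42 in siNELF-A. No siNELF-B array reached a siNELF-A array. NELFE was 2.06-fold lower in siNELF-B (difference -1.04, SE 0.222, adjusted p = 0.0247 over 16909 genes). Of its 15 probe sets 5 were separated downward and 0 upward, and 1 was higher in siNELF-B by mean. The call of NELFE was not followed across the alternative settings used for other named genes. Against control neither knockdown passed, at -0.43 for siNELF-B (adjusted p = 0.194) and 0.61 for siNELF-A (adjusted p = 0.196). NELFCD, the gene of NELF-C and NELF-D, read 8.60, 9.29 and 7.95 in siNELF-B, against 8.87, 8.66 and 8.23 in siNELF-A. Its groups overlapped, with a difference of 0.02 (SE 0.267, adjusted p = 0.982).

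More clusters were lower in siNELF-B than higher. Of the 22011 clusters, 942 (4.28%) were called, 180 (0.818%) higher and 762 (3.46%) lower, and 179 (0.813%) and 746 (3.39%) of them were also separated. Separation alone, with no model, held for 990 clusters upward (4.5%) and 2051 downward (9.32%). In 59 clusters upward (0.268%) and 131 downward (0.595%) the nearest arrays of the groups were at least 1.5-fold apart. The smallest p an exact permutation test of 3 against 3 arrays allows is 0.1, counting both directions. Full separation gives this p, so a share of 0.1 of clusters would be separated if the labels made no difference and both groups varied alike. They did not vary alike, as the median standard deviation over clusters was 0.398 in siNELF-B and 0.186 in siNELF-A. The share separated in either direction was 13.8% (3041 clusters). With unequal spread the 0.1 is no reference for this share, nor for the 4.5% upward or the 9.32% downward. Separation alone, in either direction, therefore does not mark a difference. The median difference over all clusters was -0.06, and it moved with brightness: 0.01 and 0.02 in the 2 dimmer of 4 equal bins of level, -0.14 in the next and -0.31 in the brightest. Of the lower calls 465 lay in the brightest bin, as did 84 of the higher calls.

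**Figure D1:**
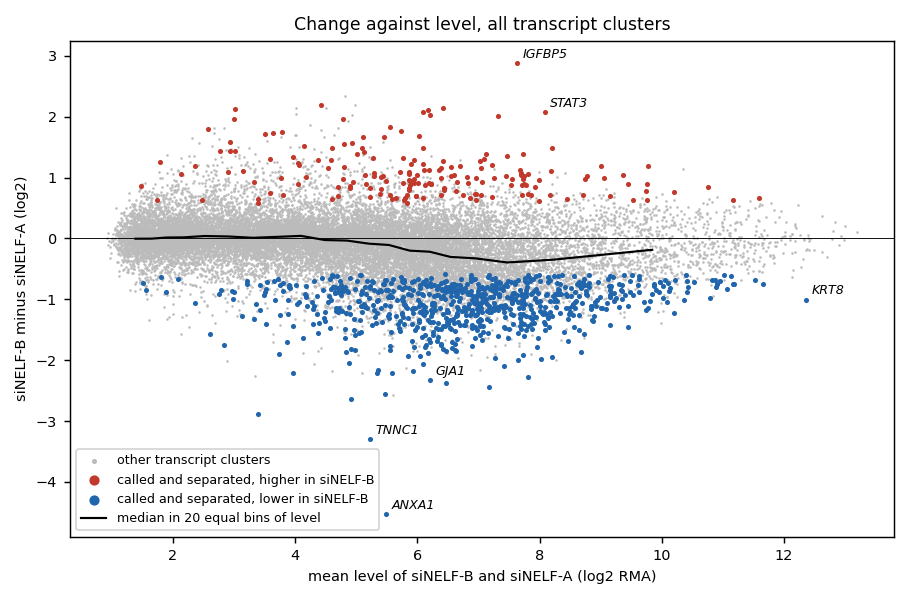
Difference between siNELF-B and siNELF-A (vertical, log2) against the mean level of the 2 groups (horizontal, log2 RMA) for all 22011 transcript clusters, with the 179 called and separated higher in red, the 746 lower in blue and a running median in black. The median falls below 0 among bright clusters, IGFBP5 and STAT3 stand at the upper edge, and ANXA1 and TNNC1 at the lower.

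The balance of the calls depended on the scaling. Higher calls made up 19.1% of all calls as reported, 41.7% after quantile normalization (732 higher, 1024 lower), 47.2% with arrays centred on their 75th percentiles (842 higher, 941 lower) and 41.2% with arrays scaled to a common interquartile range (686 higher, 980 lower). Centring on the 75th percentile also moved the median of all clusters to 0.19. With array spread as a covariate, measured by the interquartile range, 54.6% of calls were higher. Single arrays mattered too. Leaving out siNELF-B replicate 2 gave 400 higher and 4287 lower (19.5% of all clusters), leaving out replicate 3 gave 760 and 592, and leaving out replicate 1 gave 84 and 176. Leaving out siNELF-A replicate 1, 2 or 3 gave 90 and 185, 63 and 136, and 86 and 524. A fit on the 6 arrays alone called 0 clusters (smallest adjusted p = 0.0803, with 1930 at an unadjusted p below 0.05, against 4328 in the fit on 15 arrays). Calls were also followed across 14 alternatives in scaling, array weights, covariates and arrays left out, all fitted with the other groups. The fit on the 6 arrays alone, which kept no call, is not among them, nor are the exon-level, 2-fold and dim-cluster settings. In those 14, 49 of the 180 higher calls (27.2%) and 103 of the 762 lower calls (13.5%) were made each time.

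**Figure D2:**
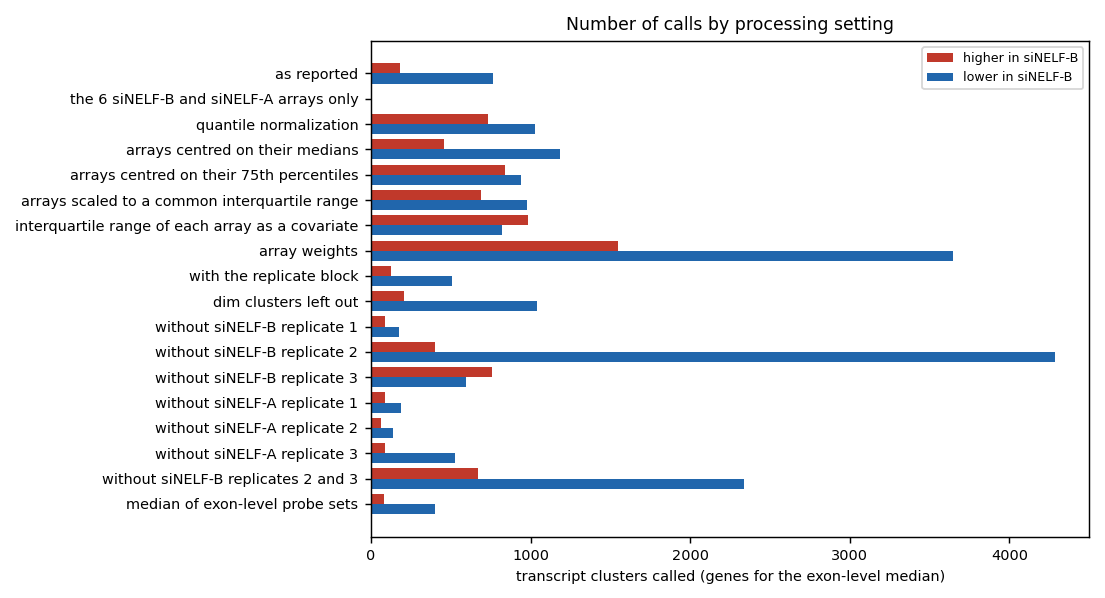
Number of clusters called higher (red) and lower (blue) in siNELF-B than in siNELF-A under each processing setting, with genes counted in place of clusters for the exon-level median. The bars start at 0 and 0 with the 6 arrays alone. The longest higher bar is 1545, with array weights, and the longest lower bar is 4287, without siNELF-B replicate 2.

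Genes higher in siNELF-B included secreted and signalling proteins. IGFBP5, a secreted protein that binds insulin-like growth factors, read 9.07, 9.64 and 8.5 in siNELF-B, against 6.12, 6.30 and 6.17 in siNELF-A and 8.98, 9.0 and 9.09 in control. The lowest siNELF-B array was 2.19 above the highest siNELF-A array, and siNELF-B straddled control. IGFBP5 was 7.34-fold higher in siNELF-B (2.88, SE 0.227, adjusted p = 5.68e-05). Of its 12 exon-level probe sets 10 were separated the same way and 0 the other way. STAT3, the transcription factor activated by interleukin-6 family cytokines, read 9.29, 9.49 and 8.57 in siNELF-B, against 7.17, 7.16 and 6.80 in siNELF-A and 9.47, 9.44 and 9.45 in control. Its siNELF-A arrays were all far below the other 2 groups. STAT3 was 4.21-fold higher in siNELF-B (2.07, SE 0.196, adjusted p = 0.000297), and 23 of its 26 probe sets were separated upward.

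EPAS1 encodes an oxygen-regulated transcription factor subunit of the hypoxia-inducible family. It read 7.22, 7.80 and 6.64 in siNELF-B, against 4.95, 5.52 and 4.89 in siNELF-A and 6.83, 6.73 and 6.87 in control. The groups were 1.12 apart at their nearest arrays, and the difference was 4.29-fold (2.10, SE 0.247, adjusted p = 0.00134). TXNIP, which inhibits thioredoxin and restrains glucose uptake, read 8.34, 8.84 and 7.80 in siNELF-B, against 6.38, 6.43 and 6.14 in siNELF-A and 8.22, 8.30 and 8.29 in control. It was 4.03-fold higher in siNELF-B (2.01, SE 0.2, adjusted p = 0.000425) and did not pass between siNELF-B and control (0.06, adjusted p = 0.867). TNFSF10, the death ligand TRAIL, read 6.55, 7.27 and 6.00 in siNELF-B, against 5.05, 4.92 and 4.54 in siNELF-A. Its difference was 3.41-fold (1.77, SE 0.256, adjusted p = 0.00364).

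The other genes among the 15 furthest above siNELF-A had differences between 1.55 and 2.14. At the cell surface these were GPC6 (2.08), a heparan sulfate-bearing glypican, the potassium channel subunit KCNMA1 (1.96), the kainate receptor subunit GRIK4 (1.83) and CMTM6 (1.68), which keeps the checkpoint ligand PD-L1 at the membrane. In the nucleus they were the Notch target HEY2 (1.66) and the co-regulator CITED1 (1.55). DCAF6 (2.14) and FBXO32 (1.66) are substrate receptors of ubiquitin ligases, ERAP1 (1.57) trims peptides for class I antigen presentation, and NREP (1.72) completed the set. All 15 were separated, as their selection required. FBXO32 was the closest, with its lowest siNELF-B array at 5.28 and its highest siNELF-A array at 5.01. The calls of IGFBP5, EPAS1, GPC6, STAT3, TXNIP, KCNMA1, GRIK4, TNFSF10, NREP, HEY2, ERAP1 and CITED1 held in all 14 alternatives. DCAF6 kept 12, CMTM6 13 and FBXO32 11, each lost with a single array left out (adjusted p up to 0.0709 for DCAF6, 0.0552 for CMTM6 and 0.0936 for FBXO32).

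The genes furthest below siNELF-A were led by an annexin. ANXA1, a calcium- and phospholipid-binding protein with anti-inflammatory functions, read 2.77, 3.93 and 2.96 in siNELF-B, against 7.82, 7.66 and 7.76 in siNELF-A and 4.67, 4.31 and 4.71 in control. Every siNELF-B array lay below and every siNELF-A array above all 3 control arrays. ANXA1 was 23.0-fold lower in siNELF-B (difference -4.53, SE 0.265, adjusted p = 7.81e-06), and all 14 of its probe sets were separated downward. It passed against control in both knockdowns, at -1.35 in siNELF-B (adjusted p = 0.0222) and 3.18 in siNELF-A (adjusted p = 3.26e-05). Its relative ANXA3 read 3.48, 4.71 and 3.36 in siNELF-B, against 6.05, 5.91 and 5.73 in siNELF-A. ANXA3 was 4.13-fold lower in siNELF-B (difference -2.05, SE 0.293, adjusted p = 0.00354).

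TNNC1, the calcium-binding troponin of slow and cardiac muscle, read 3.62, 3.69 and 3.42 in siNELF-B, against 7.01, 7.27 and 6.36 in siNELF-A and 6.05, 5.99 and 6.30 in control. The 3 siNELF-B arrays sat close together and far below both other groups. TNNC1 was 9.86-fold lower (difference -3.30, SE 0.224, adjusted p = 2.31e-05), and siNELF-B was also below control (-2.54, adjusted p = 7.57e-05). GJA1, the gap junction protein connexin, read 4.61, 5.43 and 5.06 in siNELF-B, against 7.44, 7.36 and 7.29 in siNELF-A and 6.64, 6.45 and 6.67 in control. Like ANXA1 it passed against control in both directions, at -1.55 in siNELF-B (adjusted p = 0.000896) and 0.77 in siNELF-A (adjusted p = 0.0312). GJA1 was 5.02-fold lower in siNELF-B than in siNELF-A (difference -2.33, SE 0.177, adjusted p = 4.53e-05), in both of its probe sets. It was also low in the other knockdowns, with means of 4.625 in siNELF-C and 4.82 in siNELF-E, against 5.04 in siNELF-B.

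EFNB2, a membrane ligand of Eph receptors, read 4.30, 4.45 and 3.96 in siNELF-B, against 6.60, 6.46 and 6.28 in siNELF-A and 4.61, 4.29 and 4.56 in control. SiNELF-B overlapped control while siNELF-A stood above both. EFNB2 was 4.64-fold lower in siNELF-B (difference -2.21, SE 0.16, adjusted p = 3.44e-05), in 15 of 16 probe sets. LIN7A, a scaffold of epithelial polarity complexes, read 2.62, 2.91 and 3.04 in siNELF-B, against 4.72, 5.32 and 5.15 in siNELF-A. It was 4.62-fold lower in siNELF-B (difference -2.21, SE 0.182, adjusted p = 7.54e-05).

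MMP16, a membrane-anchored matrix metalloproteinase, had 2 clusters that moved alike. The first read 4.25, 5.22 and 3.11 in siNELF-B, against 6.92, 6.36 and 6.96 in siNELF-A, a difference of -2.55 (SE 0.404, adjusted p = 0.0057). The second read 6.10, 6.29 and 4.84 in siNELF-B, against 7.49, 7.55 and 7.41 in siNELF-A, a difference of -1.74 (SE 0.275, adjusted p = 0.0057). Both were separated, as their selection required, and 20 of 22 probe sets of the gene were separated downward. In siNELF-C the 2 clusters averaged 2.66 and 5.19, below their siNELF-B means of 4.195 and 5.74. In siNELF-E they averaged 5.14 and 6.205, above siNELF-B. The remaining genes of the 15 ran from -2.06 to -2.88. They were PLAC8 (-2.88), RWDD4 (-2.63), FAM98A (-2.44), the membrane-anchored ubiquitin-like protein UBL3 (-2.37), MB21D2 (-2.28), PIGA (-2.18) of glycosylphosphatidylinositol anchor synthesis, the HSP70 relative HSPA13 (-2.10) and NDUFAF1 (-2.06), an assembly factor of respiratory complex I. The calls of FAM98A, UBL3, PIGA and NDUFAF1 were lost in 3 or 4 of the 14 alternatives, each with 1 array left out (adjusted p up to 0.0902). Those of the other 11 genes held in all 14. UBL3 shows how the siNELF-B arrays spread: it read 5.47, 6.63 and 3.73 there, against 7.77, 7.52 and 7.65 in siNELF-A.

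**Figure D3:**
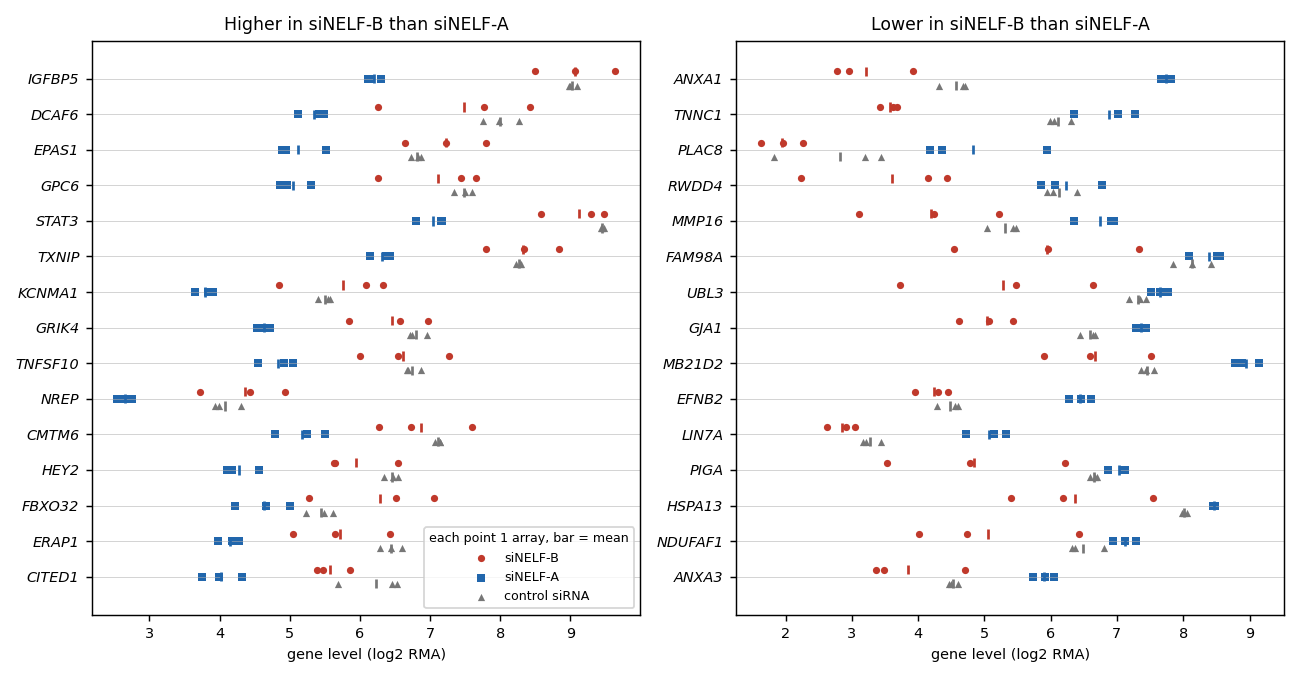
Gene levels (log2 RMA) on each siNELF-B, siNELF-A and control array for the 15 genes furthest above (left) and the 15 furthest below (right) siNELF-A, with bars at group means. In every gene shown the 3 siNELF-B points lie on 1 side of the 3 siNELF-A points, because the genes were selected for it. For IGFBP5, STAT3 and TXNIP siNELF-B lies near control, and for ANXA1 and GJA1 control lies between the knockdowns.

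The position of each knockdown against control was then read for the 925 clusters called and separated. Both contrasts share the control arrays and the selection favours opposite sides, so the shares are a description. Of the 179 clusters higher in siNELF-B, 114 (63.7%) were called lower than control in siNELF-A and not called in siNELF-B. Another 49 (27.4%) were called against control in neither knockdown, 11 (6.15%) were called higher in siNELF-B and not in siNELF-A, and 5 (2.79%) were called lower in both. Over all clusters, siNELF-B had 45 higher (0.204%) and 922 lower (4.19%) than control, and siNELF-A had 109 higher (0.495%) and 622 lower (2.83%). IGFBP5, DCAF6, EPAS1, GPC6, STAT3 and TXNIP led the clusters lowered in siNELF-A, with siNELF-A minus control between -1.69 for EPAS1 and -2.83 for IGFBP5.

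The 746 clusters lower in siNELF-B were divided differently. Neither knockdown was called against control in 417 (55.9%), of the 2 knockdowns only siNELF-B was called lower in 253 (33.9%), and only siNELF-A was called higher in 67 (8.98%). These positions leave siNELF-C and siNELF-E aside. The knockdowns were called on opposite sides of control in 4, both were called lower in 4, and both higher in 1. TNNC1, RWDD4, FAM98A, UBL3, PIGA and HSPA13 led those lowered in siNELF-B and not called in siNELF-A. Some of them were also low elsewhere. TNNC1 averaged 4.01 in siNELF-E, PIGA 5.12 in siNELF-C and 5.60 in siNELF-E, and HSPA13 7.07 and 7.04, against control means of 6.12, 6.65 and 8.02. PLAC8, MB21D2, EFNB2, LIN7A, ANXA3 and ENC1 led those raised in siNELF-A and not called in siNELF-B. ANXA3 averaged 6.04 in siNELF-C and 5.62 in siNELF-E, against 5.90 in siNELF-A and 4.52 in control. MB21D2 averaged 8.06 in siNELF-C and 8.26 in siNELF-E, against 8.94 in siNELF-A and 7.45 in control. ENC1, an actin-binding Kelch protein, read 4.80, 5.58 and 4.83 in siNELF-B, against 7.47, 6.99 and 6.56 in siNELF-A and 5.59, 5.42 and 5.42 in control (difference -1.94, SE 0.245, adjusted p = 0.00169).

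**Figure D4:**
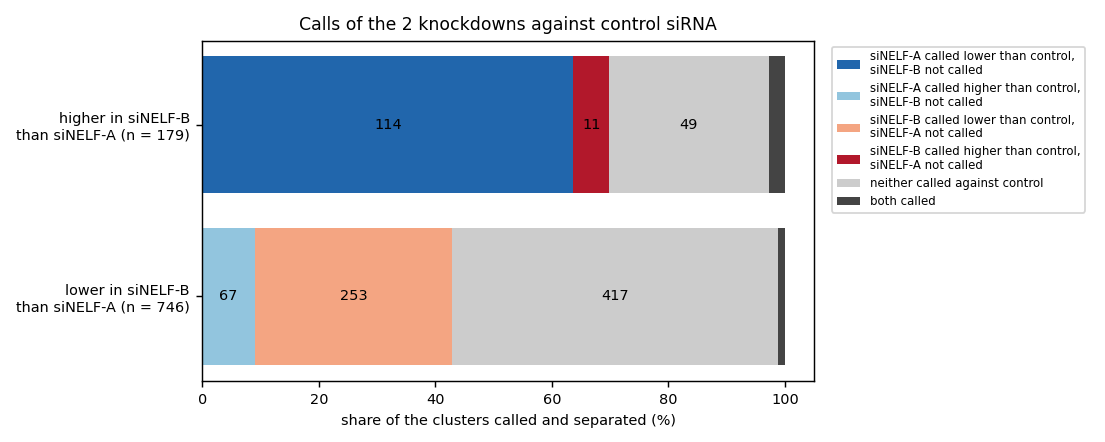
Share (%) of the clusters called and separated between siNELF-B and siNELF-A, by the calls of these 2 knockdowns against control, siNELF-C and siNELF-E aside, with numbers of clusters on the bars. Among the 179 higher the widest segment, 114, is siNELF-A alone below control, and among the 746 lower 417 were called in neither and 253 in siNELF-B alone, below control.

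Few genes were raised over control in siNELF-B and not in siNELF-A. BCAS1, a gene amplified in some breast cancers, read 6.87, 7.08 and 6.14 in siNELF-B, against 5.60, 5.61 and 5.24 in siNELF-A and 5.69, 5.61 and 5.78 in control. It was 2.33-fold higher in siNELF-B than in siNELF-A (1.22, SE 0.2, adjusted p = 0.00662) and 1.01 above control (adjusted p = 0.0232). BCAS1 stood higher still in siNELF-C and siNELF-E, with means of 7.16 and 8.71. ATP2A3, a calcium pump of the endoplasmic reticulum, read 6.63, 6.88 and 6.42 in siNELF-B, against 5.83, 5.65 and 5.71 in siNELF-A (0.92, SE 0.136, adjusted p = 0.00442), and averaged 7.75 in siNELF-E and 5.87 in control. The calls of BCAS1 and ATP2A3 held in all 14 alternatives. PADI2, which converts arginine to citrulline in proteins, differed by 0.72 (adjusted p = 0.0123), BCL3, a nuclear inhibitor-of-NF-kB family member, by 0.69 (adjusted p = 0.0208), and MS4A1, the B cell antigen CD20, by 1.31 (adjusted p = 0.0251). PADI2 averaged 5.65 in siNELF-E, close to its 5.75 in siNELF-B, against 5.15 in control. The calls of PADI2, BCL3 and MS4A1 held in 12, 6 and 9 of the 14.

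The siNELF-C and siNELF-E arrays placed the same clusters among all 15 arrays. Of the 179 higher in siNELF-B, 110 (61.5%) had all 3 siNELF-A arrays below the other 12, against 0.94% of all clusters, and 12 (6.7%) had all 3 siNELF-B arrays above the other 12, against 0.223%. Of the 746 lower, 210 (28.2%) had the siNELF-A arrays above the other 12, against 1.51% of all clusters, and 143 (19.2%) had the siNELF-B arrays below, against 1.07%. Since the clusters were chosen for a difference between these groups, the shares carry no test. Of the 15 genes furthest above siNELF-A, 13 had all siNELF-A arrays lowest, and of the 15 furthest below, 10 had all siNELF-A arrays highest and 5 had all siNELF-B arrays lowest. ANXA1 was in both of these counts. HEY2 and CITED1 were the genes furthest above siNELF-A that fell outside the 13. HEY2 averaged 4.80 in siNELF-C and 5.73 in siNELF-E, against 4.28 in siNELF-A. CITED1 averaged 4.51 in siNELF-C and 4.07 in siNELF-E, against 4.02 in siNELF-A.

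Members of 28 gene lists were then counted against the background of 0.818% of clusters called higher and 3.46% called lower (1.21% and 5.49% among the 13554 brighter clusters). For separation the background was 4.5% of all clusters upward and 9.32% downward. The subunits of oxidative phosphorylation, the mitochondrial respiratory chain and ATP synthase, held the most calls. Of 35 measured, 8 were called lower, 0 higher, and 18 were separated downward, with a median difference of -0.72, against -0.06 over all clusters and -0.31 in the brightest of the 4 bins. With arrays scaled to a common interquartile range the median was -0.34 and 4 were called. The 8 were NDUFA2, NDUFA9, NDUFAB1, NDUFB5, NDUFS3, UQCRC2, COX5B and CYC1. NDUFAB1, the mitochondrial acyl carrier protein, read 7.0, 7.86 and 6.00 in siNELF-B, against 8.31, 8.43 and 8.58 in siNELF-A and 7.85, 7.42 and 7.94 in control (difference -1.49, SE 0.344, adjusted p = 0.0315). UQCRC2, a core subunit of complex III, read 9.06, 10.00 and 8.51 in siNELF-B, against 10.26, 10.28 and 10.14 in siNELF-A (-1.04, SE 0.264, adjusted p = 0.0442). Both were separated, as their selection required, with siNELF-B replicate 2 nearest to siNELF-A. The list's median was -0.83, -0.17 and -1.2 for siNELF-B replicates 1, 2 and 3, and its bright members ATP5F1A (-0.38, adjusted p = 0.177) and ATP5F1C (-0.72, adjusted p = 0.0606) did not pass. Without siNELF-B replicate 1 the count was 1 of 35 and without replicate 2 it was 25 (against 19.5% of all clusters). Without siNELF-A replicate 1, 2 or 3 it was 1, 0 and 3. The 19.5% takes in dim clusters, while most members of this list were bright. The share among brighter clusters alone is not given for that setting, here or for the lists below.

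Mitochondrial ribosomal proteins had a median of -0.61. Of 36 measured, 3 were called lower, against 465 of 5503 clusters in the brightest of the 4 bins. Separated downward were 12, against 9.32% of all clusters. The called members were MRPL47 (-1.26, adjusted p = 0.0328), MRPS16 (-0.88, adjusted p = 0.0291) and MRPL17 (-0.79, adjusted p = 0.0328). The count was 0 without siNELF-B replicate 1 or any 1 of the siNELF-A replicates, and 30 without siNELF-B replicate 2 (against 19.5% of all clusters). The list's medians by replicate were -0.70, -0.03 and -1.29. Cytosolic ribosomal proteins had a median of -0.45 and 1 of 15 called, RPL11 (-0.84, adjusted p = 0.0435), a call held in 5 of the 14 alternatives. Both medians were below 0 in each of the alternatives run, between -0.31 and -0.96 for mitochondrial and between -0.06 and -0.71 for cytosolic ribosomal proteins. The part of array spread in these medians was not tested.

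Pausing and elongation factors, the machinery NELF works with, had 0 of 30 called higher and 2 lower, with a median of -0.40. SUPT4H1, the smaller subunit of DSIF, read 7.72, 8.79 and 7.18 in siNELF-B, against 9.36, 9.47 and 9.35 in siNELF-A and 8.69, 8.65 and 8.73 in control. Its groups were 0.56 apart, all 11 of its probe sets were separated downward, and it was 2.83-fold lower in siNELF-B (difference -1.50, SE 0.287, adjusted p = 0.0144). TCEA2, a cleavage-stimulating elongation factor, differed by -0.72 (SE 0.162, adjusted p = 0.0267). The call of SUPT4H1 held in 11 of 14 alternatives and that of TCEA2 in 7. The median was 0.24 for siNELF-B replicate 2 and -1.15 for replicate 3, so its sign differs between arrays. SSRP1 of the histone chaperone FACT differed by 0.01 (SE 0.213, adjusted p = 0.987).

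The unfolded protein and ATF4 response, which raises chaperones and amino acid metabolism under stress, had 4 of 34 called lower and 0 higher (median -0.34). Of its members 10 were separated downward, against 9.32% of all clusters. The called members serve amino acid use and feedback. ASNS, asparagine synthetase, read 6.65, 7.02 and 6.29 in siNELF-B, against 7.78, 7.97 and 7.67 in siNELF-A and 7.20, 7.22 and 7.39 in control. Control lay between the knockdowns, and ASNS was 2.23-fold lower in siNELF-B (-1.15, SE 0.162, adjusted p = 0.00329). WARS1, the cytosolic tryptophanyl-tRNA synthetase, differed by -1.46 (adjusted p = 0.0184), the amino acid transporter chain SLC3A2 by -0.98 (adjusted p = 0.00737) and the pseudokinase TRIB3 by -0.81 (adjusted p = 0.0102). The call of ASNS held in all 14 alternatives, that of SLC3A2 in 13, WARS1 in 11 and TRIB3 in 10. Over these alternatives 2 to 14 members were called lower and 0 to 4 higher, and the median was -0.03 with arrays scaled to a common interquartile range. Heat shock and chaperone genes had 0 of 12 called by limma and a median of -0.41, with 5 lower at an unadjusted p below 0.05 (4328 of 22011 clusters in either direction). The heat shock median was -0.05 under the same scaling, and 5 members were called lower without siNELF-B replicate 2 (against 19.5% of all clusters).

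Lysosome and autophagy genes had 4 of 25 called lower and 0 higher (median -0.42). MAP1LC3B, the autophagosome membrane protein LC3, read 7.33, 8.07 and 5.79 in siNELF-B, against 8.97, 8.88 and 8.67 in siNELF-A and 8.55, 8.49 and 8.62 in control. It was 3.44-fold lower (-1.78, SE 0.397, adjusted p = 0.0266). ATG7, the enzyme that activates LC3 for conjugation, differed by -1.39 (adjusted p = 0.0193), the proton pump subunit ATP6V1B2 by -0.99 (adjusted p = 0.0267) and the protease CTSB by -0.76 (adjusted p = 0.0452). The count was 0 without siNELF-B replicate 1, siNELF-A replicate 1 or siNELF-A replicate 2, and 16 without siNELF-B replicate 2 (against 19.5% of all clusters). Cholesterol synthesis genes had 0 of 19 called by limma at a median of -0.40, with 7 lower and 1 higher at an unadjusted p below 0.05 (4328 of 22011 clusters in either direction). Without siNELF-B replicate 2, 12 of the 19 were called lower (against 19.5% of all clusters). The median was -0.01 when array spread entered as a covariate.

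Oestrogen-induced genes were 1 of the few lists with more calls upward, 4 of 29 against 1 downward, with a median of 0.16. IGFBP4, another insulin-like growth factor binding protein, read 9.61, 9.72 and 9.46 in siNELF-B, against 8.57, 8.38 and 8.25 in siNELF-A and 9.84, 9.52 and 9.64 in control. The siNELF-B arrays overlapped control, and IGFBP4 was 2.29-fold higher than in siNELF-A (1.2, SE 0.135, adjusted p = 0.000951). IGFBP4 was also low in the other knockdowns, with means of 8.48 in siNELF-C and 8.46 in siNELF-E, against 8.40 in siNELF-A. The chemokine CXCL12 (0.98, adjusted p = 0.0131), the growth factor receptor IGF1R (0.92, adjusted p = 0.0282) and the secreted trefoil peptide TFF3 (0.69, adjusted p = 0.0442) were also called higher. CXCL12 averaged 7.87 in siNELF-C and 7.25 in siNELF-E, below its 8.255 in siNELF-A. IGF1R averaged 7.925 in siNELF-C and 6.98 in siNELF-E, above its 6.59 in siNELF-A. KRT13, a keratin of stratified epithelia, went the other way. It read 3.97, 3.89 and 4.38 in siNELF-B, against 5.80, 5.45 and 5.45 in siNELF-A and 4.52, 4.33 and 4.52 in control (-1.49, SE 0.186, adjusted p = 0.00169). The calls of IGFBP4 and KRT13 held in all 14 alternatives, and the number of members called higher ran from 1 to 10 over them.

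All 19 luminal markers measured had a group mean at or above the 40th percentile of levels, as did 13554 of the 22011 clusters. All 25 splicing factors and all 25 lysosome and autophagy genes measured did too, so this level cannot bear out the label of the line. The mean level of the luminal markers ran from 8.09 to 8.98 over the siNELF-B arrays and from 8.40 to 8.67 over the siNELF-A arrays. KRT8, a keratin of simple epithelia, read 11.65, 12.001 and 11.93 in siNELF-B, against 12.78, 12.93 and 12.89 in siNELF-A and 12.54, 12.18 and 12.27 in control. It was 2.01-fold lower (-1.0, SE 0.14, adjusted p = 0.00317), with all 18 probe sets separated, but at -0.28 (adjusted p = 0.754) with arrays scaled to a common interquartile range. FOXA1, the pioneer factor of luminal cells, read 8.69, 9.10 and 8.54 in siNELF-B, against 8.21, 8.20 and 7.97 in siNELF-A (0.65, SE 0.146, adjusted p = 0.0283), a call held in 6 of 14 alternatives. The other 17 were not called.

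Markers of other cells were mostly dim. Of 9 basal and myoepithelial markers 6 reached the 40th percentile, as did 4 of 14 mesenchymal, 2 of 10 endothelial and 4 of 10 leukocyte markers. Their mean levels ran over the siNELF-B arrays from 4.65 to 4.97 for basal, 3.07 to 3.28 for mesenchymal, 2.96 to 3.33 for endothelial and 2.86 to 3.16 for leukocyte markers. Over the siNELF-A arrays the same ranges were 4.70 to 4.82, 3.05 to 3.11, 3.0 to 3.07 and 2.80 to 2.90. PTPRC, the common leukocyte antigen, averaged 1.43 in siNELF-B and 1.49 in siNELF-A, and the endothelial PECAM1 averaged 2.11 and 1.93, all below the 25th percentile of levels. The called members were MS4A1, described above, and FN1, the matrix protein fibronectin. FN1 read 5.10, 5.77 and 4.19 in siNELF-B, against 3.84, 3.77 and 3.60 in siNELF-A and 5.54, 5.66 and 5.89 in control (1.28, SE 0.293, adjusted p = 0.0292), and its call held in 9 of 14 alternatives.

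Interferon-stimulated genes, an antiviral programme, gave few calls between the knockdowns and many against control. The median of 40 members was -0.01 between siNELF-B and siNELF-A, and -1.52 and -1.54 against the shared control, where 28 members were called lower in each. IFIT1, which binds foreign RNA, was 1 of 2 called between the knockdowns. It read 4.20, 4.63 and 3.42 in siNELF-B, against 5.19, 4.91 and 5.21 in siNELF-A and 9.25, 9.20 and 9.58 in control (-1.02, SE 0.244, adjusted p = 0.0354). XAF1, a pro-apoptotic member, was higher in siNELF-B (0.94, SE 0.225, adjusted p = 0.0347), and had 1 exon-level probe set. The call of IFIT1 held in 9 of the 14 alternatives and that of XAF1 in 8, and neither was called without siNELF-B replicate 1, siNELF-A replicate 1 or siNELF-A replicate 3, or with the replicate block. UBE2L6, the conjugating enzyme of ISG15, differed by 0.04 (SE 0.135, adjusted p = 0.927). In antigen presentation 3 of 15 were called higher, 0 lower: ERAP1, its relative ERAP2 (1.09, adjusted p = 0.0365) and TAPBP (0.88, adjusted p = 0.0375), which loads class I molecules. The list's median was -0.12. Only 1 of the 3 was called higher without siNELF-B replicate 1, without any 1 siNELF-A replicate or with the replicate block, and TAPBP held in 9 of the 14.

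Proliferation genes gave no calls as fitted on 15 arrays, but did without 1 array. Mitosis (41 measured), DNA replication (43), homologous recombination and crosslink repair (18), splicing factors (25) and cell cycle inhibitors with interphase cyclins (18) had 0 called in either direction by limma. Over all 22011 clusters, 4328 were at an unadjusted p below 0.05 in the limma fit, in either direction. At that level the numbers lower and higher were 1 and 2 for mitosis, 7 and 1 for DNA replication, 3 and 0 for repair, 2 and 1 for splicing and 1 and 1 for cell cycle inhibitors. These counts do not stand out from that share. Their medians were -0.04, -0.26, -0.23, -0.18 and -0.04 in that order. The mitosis median was -0.09, 0.74 and -0.99 for siNELF-B replicates 1, 2 and 3. CCNB1, the mitotic cyclin, read 9.66, 10.34 and 9.57 in siNELF-B, against 9.90, 10.00 and 9.52 in siNELF-A (0.05, SE 0.211, adjusted p = 0.938), and these values do not show that the knockdowns act alike. Without siNELF-B replicate 2, 18 of 43 DNA replication genes were called lower (median -0.58), as were 10 of 41 in mitosis (-0.50), 8 of 18 in repair (-0.60), 5 of 25 in splicing (-0.46) and 3 of 18 cell cycle inhibitors and cyclins (-0.17), with 0 higher in each. That setting called 19.5% of all clusters lower, so the counts in mitosis, splicing and the cyclin list lie near the share over all clusters. With the interquartile range as a covariate 7 mitosis members were called higher.

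**Figure D5:**
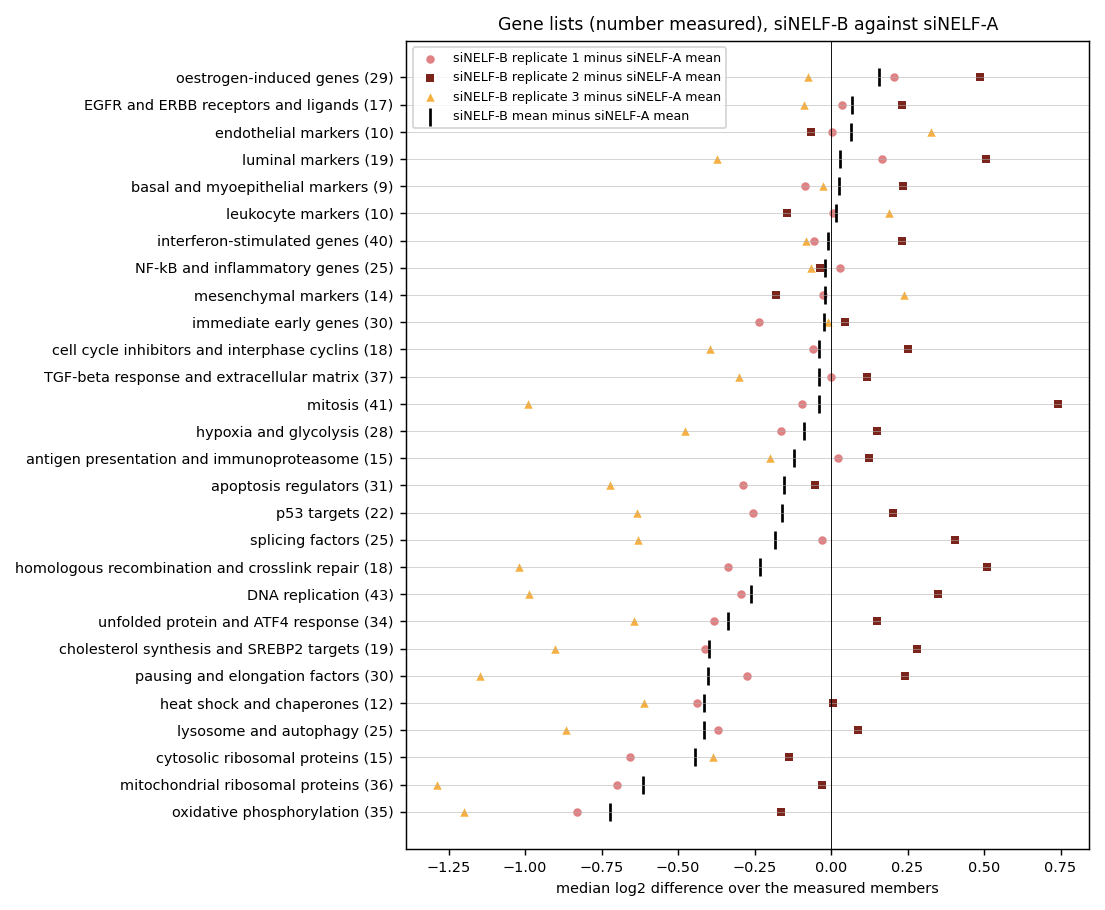
Median log2 difference from the siNELF-A mean over the measured members of each of the 28 lists, for each siNELF-B array (points) and for the siNELF-B mean (bars), with the number measured in brackets. Replicate 2 lies right of replicate 3 in most lists, and all 3 siNELF-B arrays lie left of 0 for oxidative phosphorylation, both sets of ribosomal proteins and apoptosis regulators.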

How the data were processed

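Total RNA, 1 ug per sample and depleted of ribosomal RNA, was hybridised to human exon arrays. The deposited values were log2 levels by robust multi-array average (RMA) over core exons, per the labels, made with ArrayAssist on build hg18. The version of ArrayAssist is not given in the sources used here. Both summaries cover 15 arrays: 22011 transcript clusters by gene and 287329 probe sets by exon. The labels gave groups and replicate numbers, and 3 arrays a group limit the precision.

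In R 4.3.3, limma 3.58.1 fitted a mean for each of the 5 groups to all 15 arrays as deposited (lmFit, eBayes; data.table version 1.17.8 read the files). Calls required Benjamini-Hochberg adjustment at 0.05, taken over all clusters, and 1.5-fold. For lower genes the fold is siNELF-A over siNELF-B. NELFA and NELFE were measured as the median of their probe sets and tested over 16909 genes, as planned for genes without a cluster.

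Symbols came from the platform annotation, updated through RefSeq. Of the clusters, 14432 carried 1 symbol, 2408 several and 5171 were not listed. Only clusters with 1 symbol are named; for lists the brighter of several clusters was used. The named genes were, among clusters whose higher group mean reached the 40th percentile, the 15 highest and 15 lowest called and separated, up to 4 called and 2 bright uncalled members of each of the 28 lists, up to 6 in each position against control, and the NELF subunits. ERAP2, TFF3, PTPRC, PECAM1 and some oxidative phosphorylation subunits were named after their values were seen, as were the 4 promoters. The comparison, lists and rules were chosen with earlier results of these data known. The test was tried on simulated data that gave every group the same spread, so that trial does not bear on the wider spread of siNELF-B. No set test was run.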

Additional observations from a re-analysis of the deposited data

Results flagged for a closer look

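In 18 of the named clusters every siNELF-B array lay on 1 side of all 3 control arrays and every siNELF-A array on the other. Each had passed the limma contrast between the knockdowns, but these clusters were named in part because they passed it, so that call is no further test and the position on either side of control was not tested by itself. The values are siNELF-B minus siNELF-A on the log2 scale.

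The annexin ANXA1 differed by -4.53, TNNC1 by -3.30, UBL3 by -2.37 and GJA1 by -2.33. For ANXA1 siNELF-B minus control was -1.35 and siNELF-A minus control 3.18, and for TNNC1 the values were -2.54 and 0.76. LIN7A differed by -2.21, PIGA by -2.18 and HSPA13 by -2.10. MAP1LC3B (-1.78) and ATG7 (-1.39) both act in autophagosome formation. One cluster of MMP16 differed by -1.74, at -1.13 against control in siNELF-B and 0.61 in siNELF-A. The complex I subunit NDUFA9 differed by -1.43, ASNS by -1.15, CCN1 by -1.05, KRT8 by -1.0, SLC3A2 by -0.98 and ENO1 by -0.75. BCAS1 (1.22) and PADI2 (0.72) ran the other way, with siNELF-B at 1.01 and 0.60 above control and siNELF-A at -0.21 and -0.12. Whether the siNELF-B and siNELF-A parts of each difference passed against control varied: both passed for ANXA1 and GJA1.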

How the results depend on the processing

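The 6 arrays alone gave 0 higher and 0 lower calls, separated or not. Quantile normalization gave 732 higher (711 separated), median centring 454 (431) and 1181 lower (1143), 75th-percentile centring 842 higher (828), interquartile scaling 686 higher (676), and the interquartile range as a covariate 985 higher (311). Array weights, whose estimation stopped before convergence, gave 1545 higher (380) and 3645 lower (1368). Without siNELF-B replicates 2 and 3, 668 higher and 2334 lower were called, all separated, on the assumption that the lone array varies like the other groups. The median of exon-level probe sets gave 83 higher and 400 lower of 16909 genes (83 and 398 separated), and a 2-fold threshold 90 and 399 (89 and 391). Leaving out 1 replicate gave 63 to 760 higher (the same range separated) and 136 to 4287 lower (136 to 4227 separated). Same-numbered siNELF-B and siNELF-A arrays correlated in their deviations at 0.032, 0.1065 and 0.2031, so the numbers were not taken as pairs; with the replicate block 125 higher and 509 lower were called. Leaving out dim clusters gave 206 higher and 1037 lower. Among single named genes, 1850 values under alternatives kept their side of the threshold, 290 lost and 46 gained it, and none of those called in either fit changed sign. For list medians 442 moved by less than 1 standard deviation of the medians of the 3 siNELF-B arrays and 34 by more. The cause of these movements was not tested. The arrays carry no detection calls here, so differences among dim clusters have only the 40th-percentile level as a limit.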

Other observations

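Further gene lists held isolated calls, read against 0.818% of all clusters called higher and 3.46% lower. Among the 13554 brighter clusters the shares were 1.21% and 5.49%, and in the brightest of 4 bins of level 465 of 5503 were called lower. Most members of these lists were bright, so their counts are not read as an excess. Immediate early genes had 2 of 30 called lower: the phosphatase DUSP1, at 5.95, 6.82 and 6.00 in siNELF-B against 7.74, 7.47 and 6.96 in siNELF-A (-1.13, SE 0.252, adjusted p = 0.0265), and the matrix signalling protein CCN1, at 5.58, 5.66 and 5.32 against 6.93, 6.53 and 6.26 (-1.05, SE 0.157, adjusted p = 0.00445). The hypoxia and glycolysis list had 2 of 28 called lower. EGLN3, a prolyl hydroxylase that marks hypoxia-inducible factors for degradation, read 4.64, 4.58 and 4.54 in siNELF-B, against 5.89, 5.66 and 5.59 in siNELF-A and 4.75, 4.71 and 4.61 in control (-1.12, SE 0.114, adjusted p = 0.000483), while the glycolytic enzyme ENO1 differed by -0.75 (adjusted p = 0.0187), or -0.09 with arrays scaled to a common interquartile range. EPAS1, of the same pathway, was higher in siNELF-B, as the report gives.

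The TGF-beta response and extracellular matrix list had 1 of 37 called higher, FN1, and 2 lower, MMP16 and the ligand TGFB2. TGFB2 read 3.62, 3.84 and 3.62 in siNELF-B, against 4.76, 4.56 and 4.61 in siNELF-A and 3.55, 3.41 and 3.52 in control (-0.95, SE 0.118, adjusted p = 0.00169). The EGFR and ERBB list had 1 of 17 called each way: the ligand EGF (1.01, SE 0.205, adjusted p = 0.0188) and ERRFI1, a feedback inhibitor of the receptor (-1.11, SE 0.276, adjusted p = 0.0404). Apoptosis regulators had 2 of 31 called lower, the BCL2 family effector BAK1 (-1.21, adjusted p = 0.0192) and the initiator protease CASP9 (-0.80, adjusted p = 0.046), and 0 higher. Of 22 p53 targets TP53I3 was called higher (0.78, adjusted p = 0.0343) and TIGAR lower (-1.29, adjusted p = 0.0378), and the arrays of TIGAR overlapped. NF-kB and inflammatory genes had 1 of 25 called, BCL3. Without siNELF-B replicate 2 the members called lower numbered 13 for apoptosis, 8 for hypoxia and glycolysis, 8 for TGF-beta, 6 for immediate early genes and 6 for p53 targets. In that setting 19.5% of all clusters were called lower, dim ones included, and the share among brighter clusters is not given. The calls of CCN1, EGLN3 and TGFB2 held in all 14 alternatives, and those of DUSP1, EGF, ERRFI1, BAK1, CASP9, TP53I3 and ENO1 in 10, 11, 9, 11, 6, 9 and 9 of them.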
